A study of Homo sapiens with 6 samples.

Results

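The 10 genes described here are switched on by the kinase ERK and restrain the ERK pathway or carry its output to cell growth: DUSP4, DUSP6, SPRY2, SPRY4, SPRED1, SPRED2, ETV4, ETV5, PHLDA1 and CCND1. They were chosen by gene symbol, and all 10 had a row among the 12306 rows of the deposited table. RNA came from 92.1 cells, a human line established from a uveal melanoma, which carries an activating mutation of the G protein gene GNAQ. One group held 3 libraries from cells given 1 µM VS-4718, an inhibitor of focal adhesion kinase (FAK), for 2 h, and the other held 3 libraries from cells given the DMSO vehicle for 2 h. Growth medium with serum was common to both groups. The design text calls the libraries independent, but no source says that separate cultures were grown for them, and the p-values therefore rest on a spread between libraries that may be technical. The line is a single established line, so every value describes that line alone.

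In the ERK pathway, RAS proteins activate RAF kinases, which activate MEK kinases, which phosphorylate ERK1 and ERK2. ERK then raises transcription of ETS-family factors and of cyclin D1, and of phosphatases and adaptor proteins that switch the pathway down again, so the levels of these transcripts are widely used as a readout of ERK activity. In uveal melanoma the mutant G protein alpha subunit drives ERK through phospholipase C beta and protein kinase C, and FAK is a further kinase that this G protein activates.

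Each value was taken as the log2 of a TPM-like level, meaning abundance scaled by length and to a common total, so read depth is lost. On the linear scale the 6 columns summed to between 836527 and 840714. Row names are gene symbols of mouse style in capitals: 9641 of the 12306 rows matched a human gene, and the rows without a match held 43.5% to 44.7% of the linear sum. The transcript set behind the rows is not stated in the labels, so a level describes a row, and genes of a family may share reads. Of the melanocyte lineage markers, PMEL averaged 12.24 log2 units in VS-4718 libraries and 12.21 in vehicle libraries and SOX10 averaged 8.17 in VS-4718 libraries and 8.20 in vehicle libraries, while MLANA and TYR had means below 0 in both groups. The summed linear level of the 4 fibroblast markers with a row was 0.925 to 1.04 TPM-like units in VS-4718 libraries and 0.271 to 1.1 in vehicle libraries, and PTPRC, the 1 immune marker with a row, stood at or below 0.142 units in every library. For 2 endothelial markers the sum was 3.86 to 8.6 units in VS-4718 libraries and 5.11 to 7.56 in vehicle libraries. Of 4 epithelial markers 0 had a row among those used here.

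DUSP6 and CCND1 had the largest differences of the 10 genes. A short coding stretch of the human gene of each name is shown, taken from GENCODE 29 on GRCh38 and written 5′ to 3′ on the coding strand. The stretches identify the human genes, not the transcripts behind the rows, which are not stated. The DUSP6 stretch lies in exon 3 at chr12:89349488-89349541 on the minus strand, and its capitals mark the codons for residues 292 to 299 of 381, the catalytic signature of the phosphatase. The CCND1 stretch begins at the start codon, in exon 1 at chr11:69641314-69641355 on the plus strand, and its capitals mark the codons for residues 5 to 9 of 295, the motif through which cyclin D1 binds RB and its relatives.
DUSP6: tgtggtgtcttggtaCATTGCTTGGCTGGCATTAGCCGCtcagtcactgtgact
CCND1: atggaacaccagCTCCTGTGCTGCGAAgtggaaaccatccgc

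DUSP6 and CCND1 stood clearly below vehicle in every VS-4718 library, DUSP4 did so narrowly, and the other 7 genes overlapped between the groups. Of all 9229 tested rows 11.2% were lower in every VS-4718 library in this way. The 10 genes had 9 lower means and 1 higher mean with VS-4718, beside lower means in 58.2% of all tested rows, and their median difference was -0.14 log2 units, against -0.03 over all rows. In limma none of the 10 passed a Benjamini-Hochberg adjusted p of 0.05, which 0.130% of rows did, while 3 were lower at an unadjusted p under 0.05, as 6.74% of rows were. Lower RNA from a gene can mean less RNA per cell or fewer cells of a kind, and bulk libraries cannot tell these apart.

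**Figure D1:**
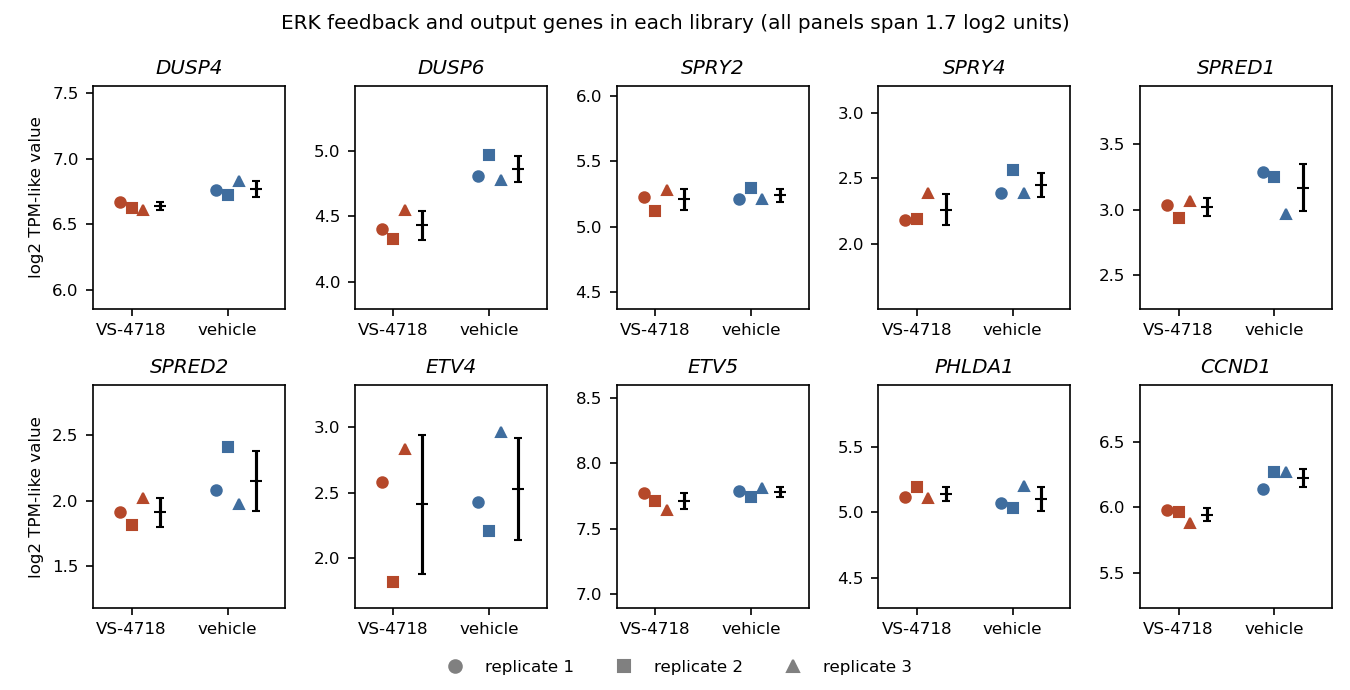
Log2 TPM-like value (y axis) of the 10 genes in each of the 3 VS-4718 libraries (left, red) and the 3 vehicle libraries (right, blue); the symbol gives the replicate number and the black bar the mean and SD. Every panel spans the same number of log2 units, and the groups are apart in DUSP4, DUSP6 and CCND1, with gaps of 0.04, 0.23 and 0.16 log2 units.

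The first pair encodes phosphatases that remove the activating phosphates from MAP kinases: DUSP6 acts in the cytoplasm and prefers ERK, and DUSP4 acts in the nucleus. DUSP6 had 4.40, 4.33 and 4.55 log2 units in the VS-4718 libraries, against 4.81, 4.97 and 4.78 in the vehicle libraries. Its highest VS-4718 value lay 0.23 units below its lowest vehicle value. The mean was 4.43 ± 0.11 with VS-4718 and 4.86 ± 0.10 with vehicle (SD, n = 3 each). On the linear scale this is a geometric mean of 21.5 TPM-like units with VS-4718 and 29 with vehicle, or 25.7% lower with VS-4718. The log2 difference was -0.43 (SE 0.09, 95% interval -0.65 to -0.21, limma adjusted p = 0.25, unadjusted p = 0.0026). DUSP6 ranked 91 of 9229 rows by p, and 3.8% of tested rows had a lower fold change.

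DUSP4 had higher TPM-like values than DUSP6 and differed less between the groups. It had 6.67, 6.62 and 6.61 log2 units with VS-4718, against 6.76, 6.72 and 6.83 with vehicle. The groups did not overlap, but only 0.04 units separated them. DUSP4 averaged 6.64 ± 0.03 with VS-4718 and 6.77 ± 0.06 with vehicle (SD, n = 3 each), a level 8.82% lower with VS-4718. Its log2 difference was -0.13 (SE 0.05, 95% interval -0.26 to -0.01, limma adjusted p = 0.49, unadjusted p = 0.043). After the libraries were scaled to a common median, the DUSP4 groups overlapped and its unadjusted p was 0.13.

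Sprouty proteins are membrane-associated inhibitors that block the signal from growth factor receptors to RAS and RAF. SPRY2 had nearly the same values in both groups, with 5.23, 5.12 and 5.28 log2 units with VS-4718 and 5.21, 5.30 and 5.21 with vehicle. The lowest value was that of VS-4718 replicate 2 and the highest that of vehicle replicate 2. Of the other values, those of vehicle replicates 1 and 3 lay just below those of VS-4718 replicates 1 and 3. Its log2 difference was -0.03 (SE 0.07), and the 95% interval of -0.20 to 0.14 allows a level between 12.9% lower and 10.1% higher with VS-4718. With the libraries scaled to a common median the difference was 0.003, and without VS-4718 replicate 2 it was 0.01.

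SPRY4 stood at a much lower level than SPRY2. It had 2.18, 2.19 and 2.39 log2 units with VS-4718, against 2.39, 2.56 and 2.39 with vehicle. Replicates 1 and 2 of the VS-4718 group lay below all vehicle libraries and replicate 3 at the level of vehicle replicates 1 and 3. The geometric mean was 4.78 TPM-like units with VS-4718 and 5.45 with vehicle. The log2 difference of -0.19 (SE 0.12, 95% interval -0.49 to 0.11) did not pass (limma adjusted p = 0.66).

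SPRED1 and SPRED2 encode Sprouty-related proteins; SPRED1 brings the RAS-inactivating protein neurofibromin to the membrane. SPRED1 had 3.04, 2.94 and 3.07 log2 units with VS-4718, against 3.29, 3.25 and 2.97 with vehicle. Vehicle replicate 3 fell among the VS-4718 libraries, and the other vehicle libraries lay above them. SPRED2 had 1.91, 1.81 and 2.02 log2 units with VS-4718, against 2.08, 2.41 and 1.97 with vehicle. Here too vehicle replicate 3 lay among the VS-4718 values, while vehicle replicate 2 stood apart as the highest. The log2 differences were -0.15 for SPRED1 (SE 0.12, 95% interval -0.44 to 0.13) and -0.24 for SPRED2 (SE 0.16, 95% interval -0.62 to 0.14). Neither passed, with limma adjusted p-values of 0.71 for SPRED1 and 0.67 for SPRED2.

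ETV4 and ETV5 encode ETS-family transcription factors of the PEA3 group, through which ERK signalling reaches further target genes. ETV5 had the highest values of the 10 genes, at a geometric mean of 209 TPM-like units with VS-4718 and 220 with vehicle. A ranking of genes by level rests on scaling by length, which was assumed. It had 7.77, 7.71 and 7.64 log2 units with VS-4718, against 7.79, 7.74 and 7.81 with vehicle. VS-4718 replicate 1 lay within the vehicle range and replicates 2 and 3 just below it. The log2 difference of ETV5 was -0.07 (SE 0.05, limma adjusted p = 0.67), with a 95% interval of -0.19 to 0.04, so a level more than 12.5% lower lies outside it.

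ETV4 was the most variable of the 10 genes. It had 2.58, 1.82 and 2.83 log2 units with VS-4718, against 2.43, 2.21 and 2.96 with vehicle. In both groups replicate 2 was lowest and replicate 3 highest, and the spread within a group (SD 0.53 with VS-4718 and 0.39 with vehicle) was several times the difference between them. That log2 difference was -0.13 (SE 0.31), and its 95% interval of -0.85 to 0.60 reaches from a level 44.7% lower to a level 51.8% higher with VS-4718. Its sign depended on single libraries: it was 0.17 without VS-4718 replicate 2 and 0.09 without vehicle replicate 3.

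CCND1 encodes cyclin D1, which activates CDK4 and CDK6 and so starts the phosphorylation of RB in G1. It had 5.98, 5.96 and 5.88 log2 units with VS-4718, against 6.14, 6.27 and 6.27 with vehicle. All VS-4718 libraries lay below all vehicle libraries, with a gap of 0.16 units. The mean was 5.94 ± 0.05 with VS-4718 and 6.22 ± 0.07 with vehicle (SD, n = 3 each). In linear terms the geometric mean was 61.3 TPM-like units with VS-4718 and 74.8 with vehicle, which is 18% lower with VS-4718. The log2 difference was -0.29 (SE 0.06, 95% interval -0.44 to -0.13, limma adjusted p = 0.26, unadjusted p = 0.0031). CCND1 ranked 109 of 9229 rows by p.

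PHLDA1 encodes a pleckstrin homology-like protein and was the 1 gene of the 10 with a higher mean. It had 5.12, 5.19 and 5.11 log2 units with VS-4718, against 5.07, 5.03 and 5.20 with vehicle. The VS-4718 values all lay within the range of the vehicle values. Its log2 difference was 0.04 (SE 0.07, 95% interval -0.14 to 0.22, limma adjusted p = 0.88).

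**Figure D2:**
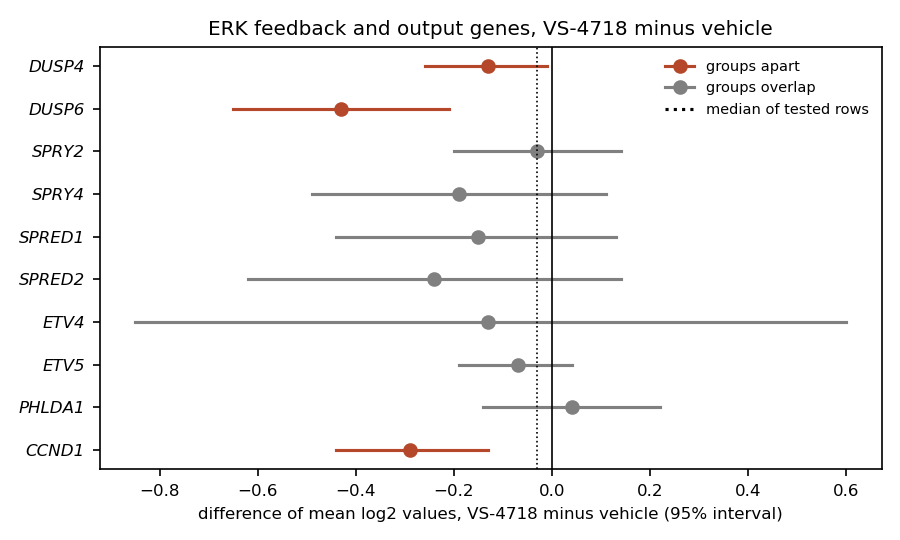
Difference between group means in log2 units, VS-4718 minus vehicle (x axis), for each of the 10 genes (y axis), with limma's 95% interval as a line; red marks genes whose groups do not overlap and the dotted line the median of all tested rows, -0.03. The intervals of DUSP6, CCND1 and DUSP4 lie below 0, that of DUSP4 ending at -0.01, and the other 7 include 0.

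Among all 9229 tested rows 12 had an adjusted p under 0.05, of which 8 were lower and 4 higher with VS-4718, and none was one of the 10 genes. An unadjusted limma p under 0.05 was found in 901 rows, 622 of them lower, and groups that did not overlap in 1510 rows, 1035 of them lower. Of the 10 genes, 8 lay below the median difference of all rows. The number of the 10 with all VS-4718 libraries lower was 3. With fewer libraries to keep apart, that number was 5 without VS-4718 replicate 3, where 21.1% of all tested rows were lower in this way, and 6 without vehicle replicate 3, where 17.2% were. After scaling to a common median it was 2, beside 8.10% of all tested rows. Leaving out single libraries also moved the number of called rows, which lay between 0 and 7.

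**Figure D3:**
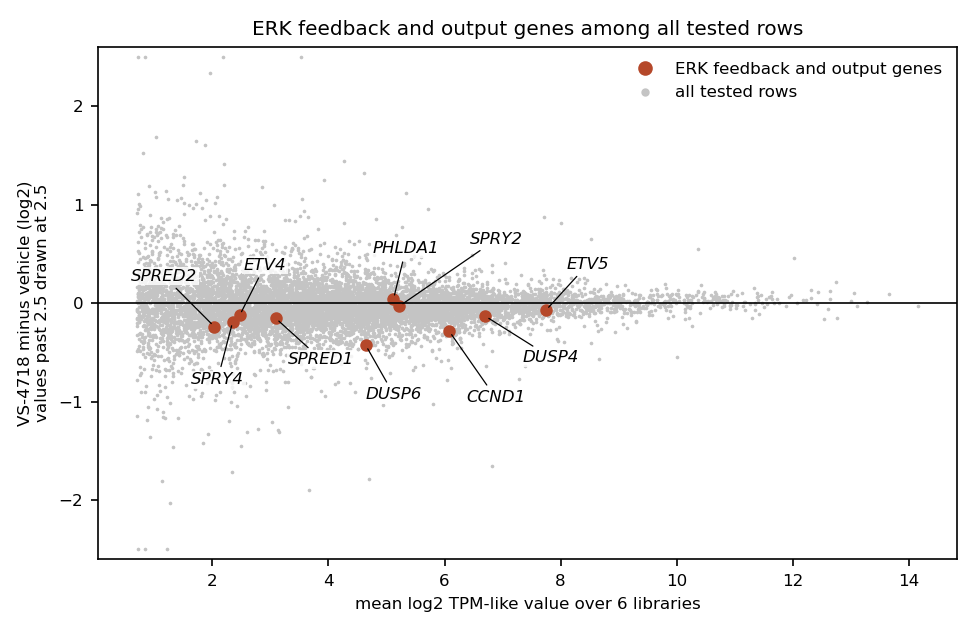
Mean log2 TPM-like value over the 6 libraries (x axis) and difference between group means in log2 units, VS-4718 minus vehicle (y axis), for the 9229 tested rows (grey) and the 10 genes (red, named); differences past the axis limit are drawn at it. DUSP6 lies at -0.43, with 3.8% of tested rows lower, and CCND1 at -0.29, while SPRY2 and PHLDA1 lie at -0.03 and 0.04.

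The lowest value of a gene was found in VS-4718 replicate 2 for 5 of the 10, in VS-4718 replicate 3 for 3, in VS-4718 replicate 1 for 1 and in vehicle replicate 2 for 1. The highest value was never in a VS-4718 library: it was in vehicle replicate 3 for 5 genes, in vehicle replicate 2 for 4 and in vehicle replicate 1 for 1. Some margins were narrow, as in PHLDA1, with 5.20 in vehicle replicate 3 and 5.19 in VS-4718 replicate 2. The same count over all tested rows was not made, so these counts cannot be called particular to the 10 genes. Library medians over the tested rows were 3.966 to 4.003 with VS-4718 and 4 to 4.021 with vehicle. Lower means with VS-4718 were found in 58.2% of all tested rows.

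Within a library, a difference between 2 genes of a family is free of any factor that scales the whole library. DUSP6 minus DUSP4 was -2.27, -2.29 and -2.06 log2 units in the VS-4718 libraries, against -1.95, -1.74 and -2.05 in the vehicle libraries. It was lower in each VS-4718 library, with a difference of means of -0.29, and VS-4718 replicate 3 lay only just below vehicle replicate 3. SPRY4 minus SPRY2 averaged -2.95 ± 0.09 with VS-4718 and -2.79 ± 0.05 with vehicle, and CCND1 minus CCND3, another D cyclin, -1.61 ± 0.09 with VS-4718 and -1.37 ± 0.14 with vehicle (SD over 3 libraries each). Each of these 3 pairs had an exact two-sided permutation p of 0.1, the smallest that 3 libraries against 3 allow, and 0.167 adjusted over the 5 pairs compared. For CCND1 minus CCND3 replicate 1 was at -1.51 in both groups, and with a pseudocount of 1 the exact permutation p was 0.2. SPRED2 minus SPRED1 averaged -1.10 ± 0.04 with VS-4718 and -1.02 ± 0.18 with vehicle (exact permutation p = 0.6). ETV5 minus ETV4 averaged 5.30 ± 0.55 with VS-4718 and 5.25 ± 0.36 with vehicle (exact permutation p = 1), so that the ETV5 row held 39.4 times the level of the ETV4 row with VS-4718 and 38 times with vehicle. The last 2 pairs also changed sign when single libraries were left out.

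Other genes that ERK is known to induce were measured beside the 10. Of 16 such genes 12 had a row and 8 were high enough to be tested. Of these 7 had a lower mean and 1 a higher mean, beside lower means in 58.2% of all tested rows. The number of lower means was 5 after scaling to a common median and 5 to 7 with a library left out. In the main fit 2 lower genes and 1 higher gene had an unadjusted limma p under 0.05 and 0 an adjusted one. Of all 9229 tested rows 6.74% were lower at an unadjusted limma p under 0.05, and 279 rows were higher. DUSP7, a cytoplasmic phosphatase of the DUSP6 type, had 4.68, 4.48 and 4.57 log2 units with VS-4718, against 4.81, 4.86 and 4.89 with vehicle. All VS-4718 values of DUSP7 lay below all vehicle values, with a log2 difference of -0.27 (SE 0.08, limma adjusted p = 0.36). MAFF, a small MAF transcription factor, had a log2 difference of -0.41 (SE 0.13), and EPHA2, an ephrin receptor kinase, one of -0.56 (SE 0.24), with groups apart in both, although the highest VS-4718 and the lowest vehicle value of EPHA2 both round to 2.17. EGR1, a zinc finger factor induced within minutes by ERK, had 2.69, 2.67 and 2.63 log2 units with VS-4718, against 1.78, 1.79 and 1.84 with vehicle. EGR1 thus lay in the opposite direction from DUSP6, at a log2 difference of 0.86 (SE 0.11, limma adjusted p = 0.072). MYC and FOS had log2 differences of -0.02 and -0.05, and are named here after their values were seen.

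The cascade itself showed means on both sides of vehicle. Of 22 adaptor, RAS, RAF, MEK and ERK genes and their inhibitors, 21 had a row and 19 were tested. They had 9 lower and 10 higher means, beside lower means in 58.2% of all tested rows, and a median of 0.03. Of the 19, 1 gene had an unadjusted limma p under 0.05, as 901 of all 9229 tested rows did. That gene was HRAS, one of the RAS genes, at a low level of 0.96, 0.89 and 0.39 log2 units with VS-4718, against 1.39, 1.69 and 1.22 with vehicle (log2 difference -0.69, SE 0.22, limma adjusted p = 0.4). The count of 1 became 0 without vehicle replicate 2 and 2 without vehicle replicate 3, and only 5 of the 19 means were lower after scaling to a common median. RASA1, a RAS GTPase-activating protein, had a log2 difference of -0.19 (SE 0.13) and SOS1, a RAS exchange factor, one of -0.22 (SE 0.13), both with overlapping groups.

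Kinases and transcriptional regulators that ERK acts on also lay on both sides. All 15 were tested, 9 with lower and 6 with higher means, beside lower means in 58.2% of all tested rows. Of the 15, 2 lower genes and 1 higher gene had an unadjusted limma p under 0.05. Of all 9229 tested rows 6.74% were lower at such a p, and 279 rows were higher. ERF, an ETS-family repressor that ERK keeps out of the nucleus, had 5.55, 5.45 and 5.52 log2 units with VS-4718, against 5.86, 5.78 and 5.97 with vehicle. The ERF groups were apart by more than the spread within either (log2 difference -0.36, SE 0.07, limma adjusted p = 0.22). ETS1, an ETS factor that ERK phosphorylates, had a log2 difference of -0.19 (SE 0.06), again with all VS-4718 values below all vehicle values. MKNK2, a kinase that phosphorylates the translation factor eIF4E, had 3.79, 3.58 and 3.50 log2 units with VS-4718, against 2.88, 3.05 and 3.35 with vehicle, so that all VS-4718 values were higher (log2 difference 0.53, SE 0.15, limma adjusted p = 0.36). RPS6KA2, which encodes a kinase of the RSK family, had a log2 difference of 0.42 (SE 0.26) with overlapping groups.

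Among 8 further MAP kinase phosphatases 7 had a row and were tested, 4 with lower and 3 with higher means. Lower means were found in 58.2% of all tested rows. Of the 7, 2 were lower at an unadjusted limma p under 0.05, as 6.74% of all tested rows were. DUSP2, a nuclear phosphatase of low level here, had 1.67, 1.73 and 1.46 log2 units with VS-4718, against 2.28, 2.30 and 2.23 with vehicle. The DUSP2 groups were well apart, with a log2 difference of -0.65 (SE 0.13, limma adjusted p = 0.24). DUSP3 had a log2 difference of -0.15 (SE 0.06) with groups apart, DUSP14 one of -0.23 (SE 0.13) and DUSP1, a nuclear phosphatase that stress also induces, one of 0.17 (SE 0.11), the last 2 with overlapping groups. The count of 2 became 1 without VS-4718 replicate 2, without vehicle replicate 2 or without vehicle replicate 3.

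Partners and inhibitors of the D cyclins had differences of -0.04 to 0.39 log2 units. Of 9 genes 8 had a row and 7 were tested. The 7 had 4 lower and 3 higher means, beside lower means in 58.2% of all tested rows, and a median of -0.01. Of the 7, 0 genes had an unadjusted or adjusted limma p under 0.05. CCND3 had a log2 difference of -0.04 (SE 0.06), CDK4, the kinase partner, one of 0.01 (SE 0.04) and CDKN2C, an inhibitor of CDK4 and CDK6, one of 0.05 (SE 0.12). CDKN1B, which encodes the inhibitor p27, had 3.12, 3.48 and 3.65 log2 units with VS-4718, against 2.86, 3.22 and 3.00 with vehicle. VS-4718 replicate 1 of CDKN1B fell within the vehicle range and the other 2 lay above it (log2 difference 0.39, SE 0.17, limma adjusted p = 0.52). The number of these genes with an unadjusted p under 0.05 was 1 without VS-4718 replicate 1 or without vehicle replicate 2, and the number of lower means was 1 without VS-4718 replicate 2 and 2 after scaling to a common median.

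**Figure D4:**
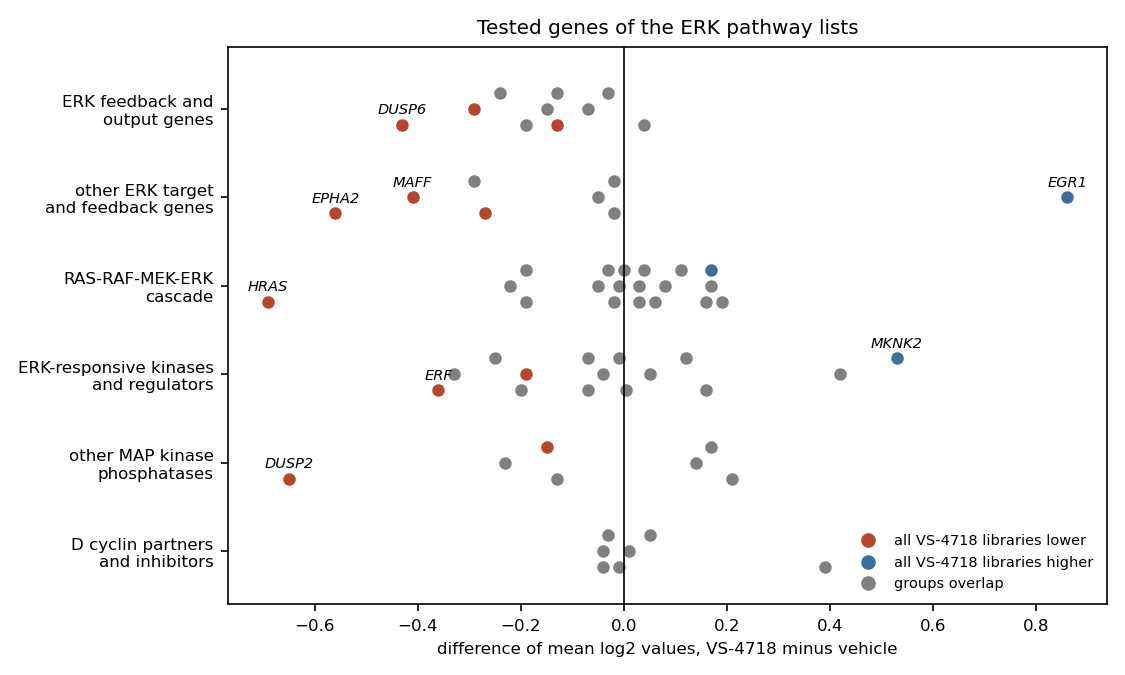
Difference between group means in log2 units, VS-4718 minus vehicle (x axis), for each tested gene of the 10 ERK feedback and output genes and of 5 lists of related genes (y axis, with points shifted up or down for legibility); red marks genes whose VS-4718 libraries are all lower, blue all higher and grey those that overlap. DUSP6 at -0.43 is the lowest of the 10, and EGR1 at 0.86 lies farthest from 0 on the other side among the genes plotted.

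The rows whose values over the 6 libraries were most like those of DUSP6 were sought by the root mean square distance between log2 values centred on each row's mean, among 7448 tested rows with a human name. They were LUC7L3 (distance 0.024), which encodes a splicing-associated protein, SRSF1 (0.031), an SR protein splicing factor, DCK (0.041), deoxycytidine kinase, and HMGCS1 (0.053), an enzyme of sterol synthesis. Their log2 differences lay between -0.50 and -0.41, with HMGCS1 lowest. For CCND1 they were SHLD2 (0.028), KCTD15 (0.032), CLSPN (0.037), which encodes the checkpoint protein claspin, and SLC25A44 (0.041), a mitochondrial carrier, with log2 differences between -0.25 and -0.23. The rows were chosen by their values in these libraries, so differences near those of DUSP6 and CCND1 follow from the choice. A small distance describes these 6 libraries only.

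RefSeq promoter windows of 250 bases before to 50 after a start (GRCh38.p14) were at hand for 6 of the 10 genes, in 9 windows. CCND1, DUSP4, ETV4 and ETV5 had no window at hand and were not searched. Both strands were searched for an ETS site (CCGGAAGT), the capicua octamer (TGAATGAA), an AP-1 site (TGACTCA) and a cAMP response element (TGACGTCA). They were found in 4.11%, 1.65%, 4.96% and 1.84% of all 34943 windows, in that order. In the 9 windows the single match was an AP-1 site at an alternative start of SPRED2, beginning 6 bases before that start. The letters say nothing on binding, and no match says only that these letters are not in these windows.

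In GENCODE 29 on GRCh38 the matched human genes are all protein coding, and a value belongs to a whole gene, not to an exon. DUSP6 lies on chromosome 12 from 89347232 to 89353271 and PHLDA1 on the same chromosome from 76025447 to 76033932. CCND1 lies on chromosome 11 from 69641087 to 69654474, and DUSP4 on chromosome 8 from 29333064 to 29350668. SPRY2 spans 80335976 to 80340951 on chromosome 13 and SPRY4 142310427 to 142326455 on chromosome 5. SPRED1 spans 38252326 to 38357249 on chromosome 15 and SPRED2 65310851 to 65432637 on chromosome 2. ETV4 is on chromosome 17 from 43527844 to 43579620 and ETV5 on chromosome 3 from 186046308 to 186110318.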

How the data were processed

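RNA of 92.1 cells was sequenced after 2 h with VS-4718 or vehicle, 3 libraries each. The authors deposited log2 values per gene symbol; the submitters' processing notes name kallisto and GRCh38, and the transcript index, strandedness and filters are not stated there. Near-equal linear sums show that the deposited values were scaled to a common total. Scaling by length, the other part of TPM, was assumed and cannot be read from the sums. Depth cannot be read from TPM, and no interval for counting error is given. Names of rows were matched to human symbols (9351 rows) or to a synonym of a single gene (290).

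Rows with a mean above the 25th percentile (0.70) were kept, 9229 in all, and tested with limma 3.58.1 in R 4.3.3 (limma-trend, group as the only term, two-sided, Benjamini-Hochberg over all tested rows, threshold 0.05). Differences are VS-4718 minus vehicle, with moderated SE and 95% intervals. Pairs of genes were compared by exact permutation. The fit was tested on simulated data. The 10 genes, the lists and the alternatives (replicate block, each library left out, median scaling, no filter, a stricter filter, no trend, quality weights, a pseudocount of 1, human names only) were chosen with earlier results of these data known. All 10 genes were named, with up to 4 genes of smallest p from each list and the 4 rows nearest to DUSP6 and to CCND1; 1 gene that this rule names is not reported here. Figures were drawn with matplotlib 3.10.9.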

Additional observations from a re-analysis of the deposited data

How the results depend on the processing

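None of the 10 genes passed the adjusted threshold in the main fit or in any of the 14 alternatives. Of 137 gene-by-setting differences 133 kept their sign, and the other 4 were those of SPRY2 (0.003 with median scaling and 0.01 without VS-4718 replicate 2) and ETV4 (0.17 without VS-4718 replicate 2 and 0.09 without vehicle replicate 3). With a library left out SPRY2 lay between -0.06 and 0.01 and ETV4 between -0.34 and 0.17. SPRY4, SPRED2 and ETV4 are too low for the stricter filter. DUSP6 lay between -0.49 and -0.37 and CCND1 between -0.33 and -0.25, each with an unadjusted p under 0.05 in all 14 alternatives and adjusted p-values of 0.2 to 0.5 for DUSP6 and 0.2 to 0.53 for CCND1. DUSP4 lay between -0.16 and -0.10 and had an unadjusted p under 0.05 in 6 of the 14. The number of the 10 genes with a lower mean ran from 7 to 9 with a library left out, and the number with groups apart from 3 to 6. The 6 were found without vehicle replicate 3, where 17.2% of all tested rows were lower in this way, against 11.2% with all libraries. With median scaling the number apart was 2, beside 8.10% of all tested rows.

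Same-numbered libraries had correlations of deviations of 0.13, 0.05 and 0.03, under 0.1 for all but 1 pair. Libraries of different numbers had -0.09 to 0.05. The numbers were not taken as pairing in the main fit, although so few values cannot settle whether they pair libraries. With the replicate block DUSP6 had an adjusted p of 0.5 and CCND1 one of 0.5, and 0 rows were called in either direction (793 with an unadjusted p under 0.05). Without the trend 0 rows were called too (910). The 12 called rows, 8 lower and 4 higher, became 0 to 7, 0 to 3 and 0 to 4 with a library left out. With human names only 5 were lower, and with no filter 2 were higher. Lists moved as follows. Other MAP kinase phosphatases had 1 gene with an unadjusted p under 0.05 without trend, with median scaling, with the block and with the stricter filter, and 1 to 2 with a library left out. The cascade had 2 such genes without trend, 0 with the stricter filter and 0 to 2 with a library left out, and 5 lower means with median scaling. Of the D cyclin partners 1 had such a p with human names only, with median scaling and with the block, and 0 to 1 with a library left out; 2 had lower means with median scaling and 1 to 4 with a library left out. Other ERK target genes had 4 lower means with the stricter filter, which tests fewer of them, and 5 with median scaling. The difference ETV5 minus ETV4 was -0.25 without VS-4718 replicate 2 and -0.15 without vehicle replicate 3, and SPRED2 minus SPRED1 was 0.003 without vehicle replicate 2. With a library left out these 2 pairs ran from -0.25 to 0.29 and from -0.18 to 0.003. The cause of these moves was not tested. All values rest on 3 libraries a group, with no depth given.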

Other observations

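Several relatives of the 10 genes had rows too low to be tested, below 0.5 TPM-like units in every library, and are given as values with no test. SPRY1, another Sprouty gene, had 0.16, 0.078 and 0.165 TPM-like units with VS-4718, against 0.287, 0.331 and 0.204 with vehicle, so its VS-4718 values were all lower. HBEGF, a growth factor of the EGF family that ERK induces, had 0.0332, 0.162 and 0.0682 units with VS-4718, against 0.0992, 0.42 and 0.106 with vehicle, with overlapping groups. CCND2, a D cyclin, had 0.105, 0.184 and 0.215 units with VS-4718, against 0.0695, 0.0935 and 0.074 with vehicle, so its VS-4718 values were all higher. SPRY1, HBEGF and CCND2 were singled out after their values were seen.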
